A study of Arabidopsis thaliana with 4 samples.

Results

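The 10 core genes of the plant circadian clock were followed in 4 RNA-seq libraries of Arabidopsis seedlings. They are CCA1, LHY, PRR9, PRR7, PRR5, TOC1, ELF3, ELF4, LUX and GI, picked by gene identifier out of 24252 genes listed in the deposited files, and each of the 10 was listed in every library. The WT group (2 libraries) is wild-type Col-0 and the fer-4 group (2 libraries) is a mutant labelled FERONIA-/- in the same ecotype; FERONIA is a receptor kinase of the cell surface. All seedlings were 7 days old, untreated, and raised on upright plates in cycles of 16 h of light and 8 h of darkness. The labels give no hour of harvest, and the comparison made here asks whether the clock genes stood at the same levels, morning genes against evening genes, in both genotypes. The labels number the libraries of a genotype 1 and 2 without saying what separates them, so every p-value below reflects only how far these libraries differ, which may be technical variation. The sources used here do not give where the fer-4 lesion lies, and a homozygous mutant line is compared with WT without a complemented line. FER transcripts, which check the labels, fell from 89.0 and 91.9 FPKM in WT to 60.6 and 62.1 FPKM in fer-4 with the test used throughout (limma, described below; adjusted p = 0.00638), and that call ended without WT replicate 2 (0.0593).

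The plant clock is a loop of repressors that follow each other through the day. The MYB factors CCA1 and LHY peak around dawn and repress the evening genes through a promoter sequence called the evening element. The pseudo-response regulators PRR9, PRR7 and PRR5 peak in turn from morning to afternoon and repress CCA1 and LHY. GI, a large protein that stabilizes the F-box protein ZTL, peaks in the late afternoon, and TOC1 and the evening complex of ELF3, ELF4 and LUX peak around dusk. These transcripts change strongly with the time of day, so their levels depend on when seedlings were harvested as well as on genotype.

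All 4 libraries showed the same arrangement of clock transcripts, with 4 evening genes high, 3 genes intermediate and 3 genes almost silent. Levels are in FPKM, fragments scaled to gene length and library size, so they can be compared between genes. In whole seedlings fewer cells of a type cannot be told apart from less RNA per cell. TOC1 was the highest member in each library, followed by ELF4, ELF3, LUX, PRR5, GI, PRR7 and LHY in that order. CCA1 and PRR9 took the last places, and only their order differed, with PRR9 above CCA1 in WT replicate 2. Spearman's rho between libraries over the 10 genes was 0.988 for the pairs with WT replicate 2 and 1 for the others, given as a description because genes of 1 library share its depth and harvest.

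**Figure D1:**
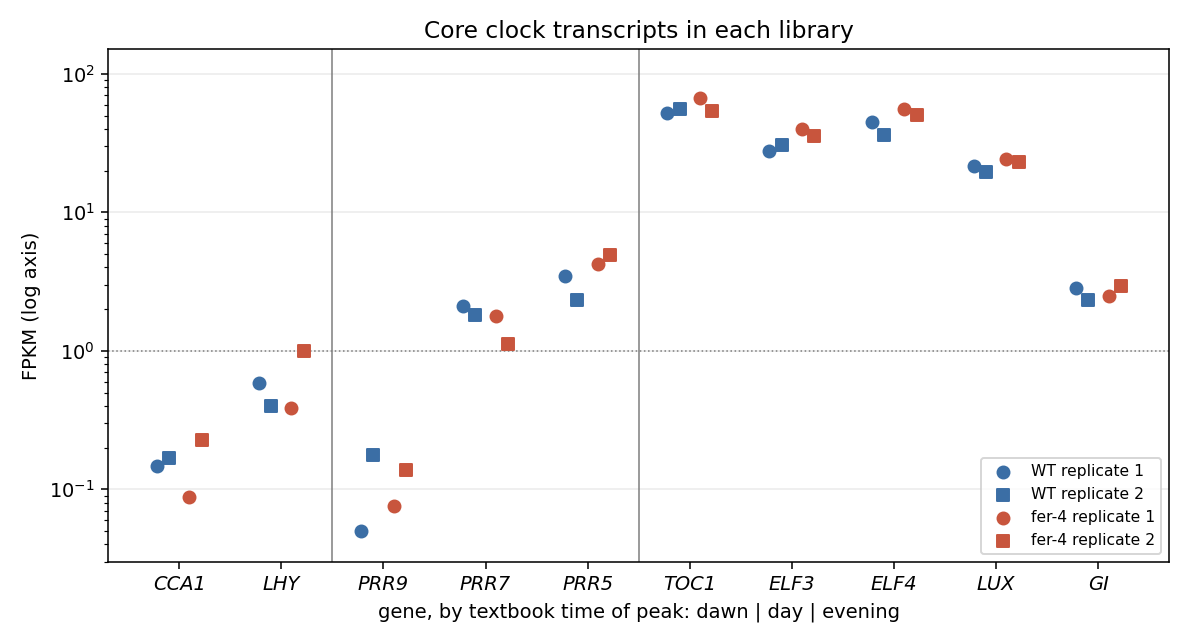
FPKM of the 10 clock genes (log axis) in each of the 4 libraries, WT in blue and fer-4 in red, with circles for replicate 1 and squares for replicate 2; vertical lines part genes known to peak at dawn, in the day and in the evening, and the dotted line marks 1 FPKM. TOC1, ELF3, ELF4 and LUX lie between 19.6 and 66.8 FPKM in both genotypes, while CCA1, LHY and PRR9 lie at or below 0.998 FPKM.

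The promoters of 3 members are shown because they carry the sequences through which the clock genes are known to act on each other. In addition, TOC1 and LUX are among the high evening genes, while CCA1 is near the bottom of the range. Each is the 300 bases before the annotated start of the gene, read in the direction of the gene from the RefSeq sequence of TAIR10.1, and capitals mark the matches to the motifs searched. The windows are chr5:24674663-24674962 (plus strand) for TOC1, chr3:17182742-17183041 (plus strand) for LUX and chr2:19245291-19245590 (plus strand) for CCA1.
TOC1 promoter: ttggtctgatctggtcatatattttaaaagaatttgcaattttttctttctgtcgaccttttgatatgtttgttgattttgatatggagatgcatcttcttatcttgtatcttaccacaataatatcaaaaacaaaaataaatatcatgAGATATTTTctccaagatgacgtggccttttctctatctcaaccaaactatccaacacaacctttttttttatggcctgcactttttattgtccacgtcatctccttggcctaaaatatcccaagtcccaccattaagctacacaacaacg
LUX promoter: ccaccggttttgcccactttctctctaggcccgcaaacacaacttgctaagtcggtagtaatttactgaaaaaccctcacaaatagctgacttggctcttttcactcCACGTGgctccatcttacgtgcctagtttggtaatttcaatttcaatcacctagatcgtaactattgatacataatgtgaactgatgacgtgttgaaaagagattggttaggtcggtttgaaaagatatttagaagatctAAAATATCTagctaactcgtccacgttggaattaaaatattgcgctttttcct
CCA1 promoter: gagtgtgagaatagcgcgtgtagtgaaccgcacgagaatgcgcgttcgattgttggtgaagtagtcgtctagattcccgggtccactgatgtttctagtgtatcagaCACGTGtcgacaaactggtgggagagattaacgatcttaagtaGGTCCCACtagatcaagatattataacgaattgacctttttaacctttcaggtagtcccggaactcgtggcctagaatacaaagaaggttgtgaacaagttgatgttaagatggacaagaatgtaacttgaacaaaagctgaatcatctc

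Both strands were searched for the evening element AAAATATCT, the related CCA1-binding site AAAAATCT, the LUX-binding sites GATACG and GATTCG, the G-box CACGTG and the site GGNCCCAC of TCP factors, and no matches overlapped in the 3 windows. TOC1 holds 1 evening element, on the opposite strand, 151 bases before its start, and LUX holds 1 at 53 bases, together with a G-box at 193 bases. The CCA1 window holds a G-box at 193 bases and, at 150 bases, a GGTCCCAC of the kind bound by CHE, a TCP factor known to repress CCA1.

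Over the windows of 9 members, the evening element occurred in the windows of PRR5, TOC1 and LUX, against 2.79% of 27443 promoters of the same length. A G-box occurred in CCA1, LHY, PRR9, PRR7 and LUX, against 7.09% of promoters. GATACG was in ELF3 (5.51% of promoters), GATTCG in PRR9 (9.34%), the CCA1-binding site in PRR5 (7.94%) and the TCP site in CCA1 (1.18%). The GI window held no match, which says only that these letters are absent from its 300 bases. A match is a description of sequence and not evidence of binding in these seedlings.

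Differences between genotypes were small next to those between genes, but the members span so wide a range of levels that this says little about genotype. The differences were tested on log2(FPKM + 1) with limma across the 19183 genes averaging 1 FPKM or more over the 4 libraries. A gene was called when its Benjamini-Hochberg adjusted p was under 0.05. Of the 10 members 7 passed that filter on level, and CCA1, LHY and PRR9 did not. Of the 7 tested, 1 rose in fer-4 (ELF3) and 0 fell, against 23.3% of all tested genes called, 14.3% higher and 9% lower (2743 and 1726 genes, or 2285 and 2364 with quantile normalization). At an unadjusted p under 0.05, limma gave 3 of the 7 higher (PRR5, ELF3, ELF4) and 0 lower, a share of 42.9% against 37.6% of all tested genes (21.2% higher and 16.4% lower). The libraries of the genotypes did not overlap for 5 of the 7, a share of 71.4% against 66.1% of all tested genes. In 4 of the 7 both fer-4 libraries lay above both WT libraries, against 34.4% of all tested genes. The median log2 fold change of the 7 was 0.20, with 0.0053 over all tested genes. Without regard to sign, the median difference of the 7 was 0.29, with 0.22 over all tested genes.

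**Figure D2:**
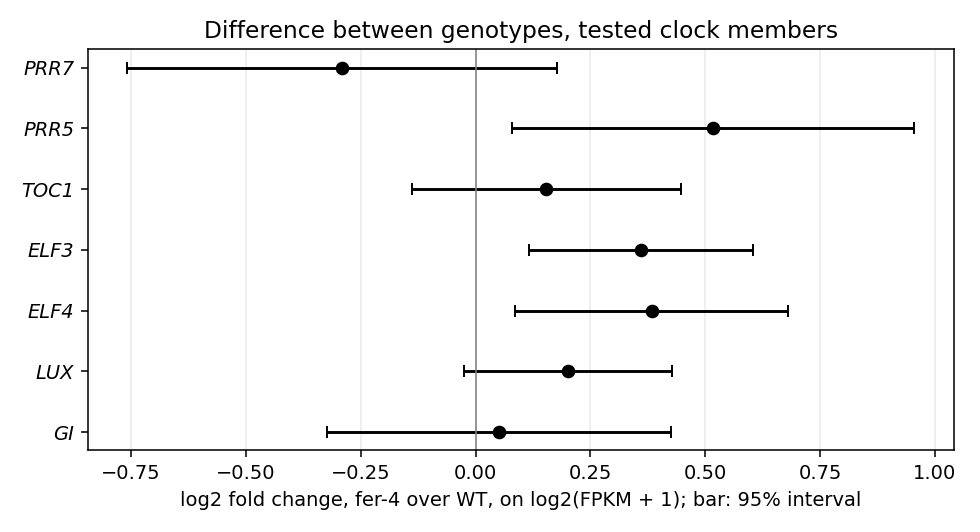
Log2 fold change of the 7 tested clock genes, fer-4 over WT, on the log2(FPKM + 1) scale; points are limma estimates from 2 libraries per genotype and bars are unadjusted 95% intervals. ELF3 at 0.36 is the only member that passed the adjusted threshold, and the estimates run from -0.29 for PRR7 to 0.52 for PRR5.

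The dawn genes were close to silent in both genotypes. CCA1 (AT2G46830, chromosome 2, 19245591 to 19248915, plus strand), a MYB repressor of the evening genes, stood at 0.148 and 0.168 FPKM for WT, with 0.0885 and 0.229 FPKM for fer-4. The fer-4 libraries lay below and above both WT libraries. These values stand for about 8 and 9 fragments in WT and 5 and 12 in fer-4, by an estimate from the smallest listed values, and lay above only 3.87% to 7.06% of the genes listed in their libraries.

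LHY (AT1G01060, chromosome 1, 33365 to 37871, minus strand), the partner of CCA1, stood at 0.59 and 0.4 FPKM in the WT libraries, against 0.387 and 0.998 FPKM in fer-4. The groups overlapped again, with the lowest and the highest value both in fer-4. With the filter on low values removed, the log2 fold change was 0.16 for LHY (limma, adjusted p = 0.633) and -0.0012 for CCA1 (adjusted p = 0.994).

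Of the day genes, PRR9 was as low as CCA1, and PRR7 and PRR5 were at a few FPKM. PRR9 (AT2G46790, chromosome 2, 19232607 to 19235179, plus strand), the morning member of the family, stood at 0.0504 and 0.176 FPKM for WT, with 0.0763 and 0.137 FPKM for fer-4, or about 2, 7, 3 and 6 fragments. At this depth no difference between the genotypes was detectable for PRR9. With no filter its adjusted p was 0.966 (limma).

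PRR7 (AT5G02810, chromosome 5, 637681 to 642030, minus strand), which follows PRR9, stood at 2.11 and 1.83 FPKM in the WT libraries, against 1.78 and 1.11 FPKM in fer-4. Both fer-4 libraries were lower, replicate 1 narrowly and replicate 2 clearly. The log2 fold change was -0.29 ± 0.19 (SE, n = 2 per genotype; limma, adjusted p = 0.321), with a 95% interval from -0.76 to 0.18.

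PRR5 (AT5G24470, chromosome 5, 8356204 to 8358546, minus strand), the afternoon member, stood at 3.48 and 2.34 FPKM for WT, with 4.2 and 4.88 FPKM for fer-4. Both fer-4 libraries were higher, and the WT libraries stood far apart from each other. The estimate was 0.52 ± 0.18 (limma, adjusted p = 0.0889), and its interval ran from 0.079 to 0.95 before adjustment. The ratio of PRR5 to PRR7 within a library, a comparison picked after the values were seen and not tested, was 1.65 and 1.28 in WT and 2.36 and 4.39 in fer-4.

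The evening genes were among the more abundant transcripts of the seedling, except GI. TOC1 (AT5G61380, chromosome 5, 24674963 to 24678550, plus strand), a pseudo-response regulator that represses CCA1 and LHY, stood at 52.2 and 55.8 FPKM in the WT libraries, against 66.8 and 54.2 FPKM in fer-4. Fer-4 replicate 1 stood above the other libraries, which lay close together, so the groups overlapped. The log2 fold change was 0.15 ± 0.12 (limma, adjusted p = 0.396) with a 95% interval from -0.14 to 0.45, which reaches a fer-4 level 1.36 times that of WT. TOC1 stood above 88.5% to 91.1% of the genes listed in a library, at the opposite end from CCA1.

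The evening complex is the nuclear complex of ELF3, ELF4 and LUX that represses PRR9, PRR7, GI and LUX itself in the night. ELF3 (AT2G25930, chromosome 2, 11058944 to 11063324, plus strand), its scaffold, stood at 27.7 and 30.4 FPKM for WT, with 39.8 and 35.4 FPKM for fer-4. Both fer-4 libraries were higher, and ELF3 rose from 29.1 ± 1.94 to 37.6 ± 3.11 FPKM (SD, n = 2), a log2 fold change of 0.36 ± 0.10 (limma, adjusted p = 0.0489). The call ended under 8 of 9 alternatives, among them leaving out WT replicate 1, WT replicate 2 or fer-4 replicate 1, with adjusted p from 0.0473 to 0.217 over the 9. ELF3 also overlaps ALPHA-VPE (AT2G25940) and an antisense RNA gene on the other strand and shares a locus in the files with ALPHA-VPE, so its value is uncertain; ALPHA-VPE itself was listed at 1.91 to 2.16 FPKM, and its part in the ELF3 value was not tested.

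ELF4 (AT2G40080, chromosome 2, 16734294 to 16734953, minus strand), a small protein that binds ELF3, stood at 44.6 and 36.2 FPKM in the WT libraries, against 55.3 and 50.3 FPKM in fer-4. Both fer-4 libraries were higher, and the WT libraries lay further apart than the nearest libraries of the 2 genotypes. The estimate was 0.38 ± 0.12 (limma, adjusted p = 0.0707), with an unadjusted interval from 0.086 to 0.68.

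LUX (AT3G46640, chromosome 3, 17183042 to 17186959, plus strand), the MYB-like factor that brings the complex to DNA, stood at 21.5 and 19.6 FPKM for WT, with 24.4 and 23.2 FPKM for fer-4. Both fer-4 libraries were again slightly higher. LUX overlaps a gene on the other strand, so its value is uncertain. The estimate was 0.20 ± 0.093 (limma, adjusted p = 0.171), with an interval from -0.025 to 0.43.

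GI (AT1G22770, chromosome 1, 8061751 to 8067790, plus strand) stood at 2.83 and 2.31 FPKM in the WT libraries, against 2.47 and 2.92 FPKM in fer-4. The groups overlapped, at a level 18.4 to 27.0 times below TOC1 in the same library. The estimate of 0.050 ± 0.15 (limma, adjusted p = 0.848) had an interval from -0.32 to 0.42, and its sign changed under 3 of 9 alternatives.

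Set against each other within a library, the distance between dawn and evening genes in the fer-4 libraries fell on both sides of that in WT. The mean log2(FPKM + 1) of CCA1 and LHY lay 4.07 below that of TOC1, ELF3, ELF4, LUX and GI in WT replicate 1 and also 4.07 below it in WT replicate 2. In fer-4 the distance was 4.45 in replicate 1 and 4.0 in replicate 2. CCA1 and LHY stood below 1 FPKM in every library, where adding 1 to FPKM flattens differences, so this score understates their gaps. The difference between the genotypes was -0.15, less than the pooled SD between replicates of 0.22, and it was 0.073 without fer-4 replicate 1 and -0.38, beyond that SD, without fer-4 replicate 2; no test is given for this score. Without time-stamped reference samples, these values do not give an hour of harvest, and a difference in hour between the genotypes was not tested.

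The fer-4 replicates differed in the dawn genes more than the WT replicates did. In fer-4 replicate 2 CCA1 was 2.58 times and LHY 2.58 times its level in replicate 1, while in WT the same ratios were 1.14 and 0.678. The estimated fragments of LHY were 25 in fer-4 replicate 1 (exact Poisson 95% interval 16.2 to 36.9, counting error only) and 58 in replicate 2 (44.0 to 75.0), which do not overlap. Those of CCA1, 5 (1.62 to 11.7) and 12 (6.20 to 21.0), do.

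The widest ratio of any member was in WT, where PRR9 was 3.49 times as high in replicate 2 as in replicate 1, at about 7 and 2 fragments.

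The other members of fer-4 replicate 2 did not share 1 direction. Set against replicate 1, PRR7 was at 0.624 times, TOC1 at 0.811, ELF3 at 0.89, ELF4 at 0.91 and LUX at 0.948 times its level, whereas GI was at 1.18, PRR5 at 1.16 and PRR9 at 1.80 times. The gap of PRR7 between the fer-4 replicates, on log2(FPKM + 1), was larger than that of 90.1% of tested genes, and that of TOC1 larger than that of 82.6%. In WT the widest gap was that of PRR5, larger than in 94.1% of tested genes. The median gap of the 7 tested members was 0.14 in WT and 0.17 in fer-4, with 0.12 in both genotypes over all tested genes, and their median difference between genotypes was 0.29 against 0.22.

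**Figure D3:**
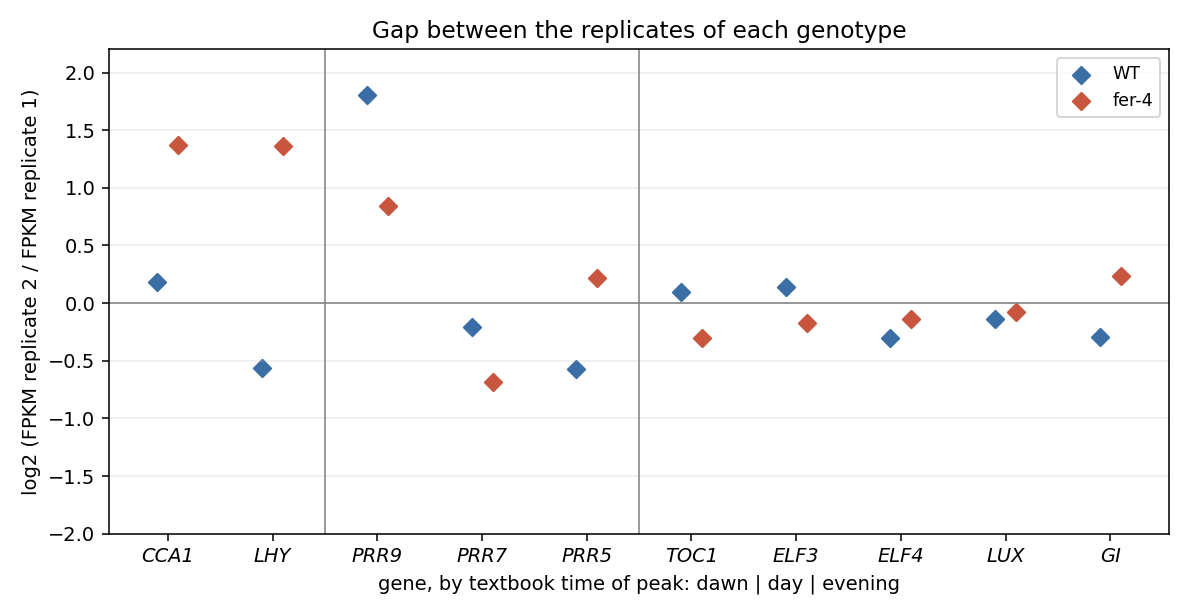
Log2 ratio of FPKM in replicate 2 over replicate 1 for the 10 clock genes, WT in blue and fer-4 in red; 0 means equal levels in both replicates. PRR9 in WT lies farthest from 0 (a ratio of 3.49) and CCA1 and LHY in fer-4 follow (ratios of 2.58), while the 5 evening genes of both genotypes lie closer to 0.

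Genes outside the core that are known to peak in the morning ran from near silent to abundant. Of 15 such genes 5 had a mean under 1 FPKM (LNK1, LNK3, LNK4, CDF1 and CDF3), and the median of the list was 2.73 FPKM. Of all 24252 listed genes, 19183 averaged 1 FPKM or more. The highest, picked here by level, were the catalase gene CAT2 at 117 to 235 FPKM and the MYB-like factor gene RVE2 at 42.6 to 64.1 FPKM. RVE4 came next, at 38.8 to 48.7 FPKM. By limma 0 of the 10 tested rose or fell, against 14.3% and 9% of all tested genes. At an unadjusted p under 0.05, 1 was higher and 2 were lower by limma, against 21.2% and 16.4% of all tested genes. The median log2 fold change was 0.11. Without fer-4 replicate 1, CAT2 and RVE2 were called lower (limma, adjusted p = 0.0191 and adjusted p = 0.0393), and with no filter on low values CDF3 was called higher (adjusted p = 0.0403). Like CCA1 and LHY, the activator gene RVE8 and its cofactor gene LNK3, chosen after their values were seen, were highest in fer-4 replicate 2. RVE8 stood at 0.985 and 0.965 FPKM for WT, with 0.994 and 2.08 FPKM for fer-4, and LNK3 0.0406 and 0.12 against 0.191 and 0.677 FPKM. Over the list, 6 of 15 genes were higher in fer-4 replicate 2 than in replicate 1, with a median ratio of 0.963.

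Genes known to peak in the afternoon or evening went both ways between the genotypes. Of 9 tested, 2 rose and 2 fell, against 14.3% and 9% of all tested genes. Fewer of the 9 were called without either WT library, and fewer of all tested genes were too. The median log2 fold change was -0.043, or 0.15 with quantile normalization, and means ran from 4.05 FPKM (CO) to 745 FPKM (GRP7, which did not pass). PRR3, whose protein shields TOC1 from degradation through ZTL, stood at 18.6 and 17.0 FPKM in the WT libraries, against 8.41 and 8.63 FPKM in fer-4. It fell by 0.98 ± 0.096 on the log2 scale (limma, adjusted p = 0.00154), with both fer-4 libraries at under 9 FPKM. The transcripts of TOC1, the partner of PRR3, did not pass, as given above, and TOC1 protein was not measured.

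CO, the photoperiod activator of flowering, stood at 5.52 and 5.16 FPKM for WT, with 2.79 and 2.72 FPKM for fer-4 and fell by 0.75 ± 0.12 (limma, adjusted p = 0.00844). It overlaps genes on the other strand, so its value is uncertain. COR27, a cold-regulated repressor of PRR5 and TOC1, rose from 18.4 and 21.1 FPKM to 37.7 and 30.3 FPKM (0.75 ± 0.13, limma, adjusted p = 0.0114). The calls of CO and COR27 ended without either WT library (adjusted p from 0.0551 to 0.0842 in those fits). GRP8, a clock-controlled RNA-binding protein gene, rose from 54.0 and 51.5 FPKM to 119 and 122 FPKM (1.17 ± 0.083, limma, adjusted p = 0.000566), while its relative GRP7 stood at 749 and 762 FPKM in the WT libraries, against 761 and 707 FPKM in fer-4.

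Among 12 other clock regulators, 3 rose and 2 fell, against 14.3% and 9% of all tested genes, with a median log2 fold change of 0.087 (-0.018 without fer-4 replicate 1). At an unadjusted p under 0.05, 4 were higher and 2 lower by limma, against 21.2% and 16.4% of all tested genes. Fewer of the 12 were called with any 1 library left out, and fewer of all tested genes were too. CHE, the TCP factor whose binding site appears in the CCA1 window above, stood at 25.3 and 26.0 FPKM for WT, with 14.0 and 12.3 FPKM for fer-4. It fell by 0.92 ± 0.097 (limma, adjusted p = 0.00195), a call that held under all 9 alternatives. CCA1 stood at about 5 to 12 fragments a library, below the filter, and a link between CHE and CCA1 was not tested. CKB3, a regulatory subunit of the kinase CK2 that phosphorylates CCA1, fell from 45.2 ± 2.3 to 31.6 ± 1.7 FPKM (SD, n = 2; limma, adjusted p = 0.0123), a call that ended without either WT library (0.0872 and 0.0637).

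FIO1, an RNA methyltransferase gene whose loss lengthens the clock period, stood at 4.14 and 3.41 FPKM in the WT libraries, against 5.85 and 6.02 FPKM in fer-4. LWD1, a WD-repeat coactivator of clock genes, stood at 27.5 and 26.7 FPKM for WT, with 36.2 and 34.9 FPKM for fer-4. Both rose (limma, adjusted p = 0.0301 and adjusted p = 0.022), but the call of FIO1 ended under 6 and that of LWD1 under 5 of 9 alternatives, each of the 4 left-out libraries among them, with adjusted p up to 0.154 and 0.130. The third gene that rose, CKB4, for another regulatory subunit of CK2, stood at 15.0 and 15.6 FPKM for WT and at 20.8 and 19.0 FPKM for fer-4 (limma, adjusted p = 0.0396) and was called under 1 of 9 alternatives.

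**Figure D4:**
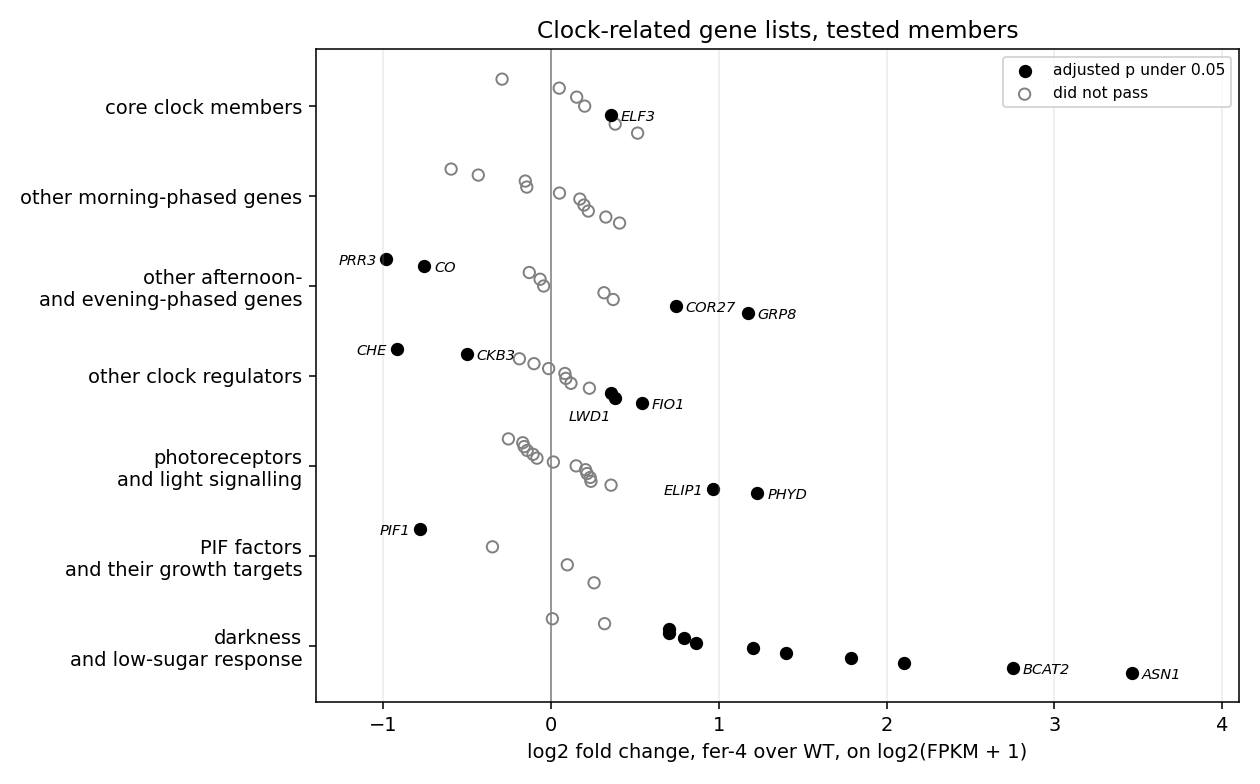
Log2 fold change, fer-4 over WT on log2(FPKM + 1), of each tested gene in the core clock list and 6 related lists; filled points passed an adjusted p of 0.05 and open points did not, and the spread within a row only separates the points. PRR3, CO and CHE stand on the left, ASN1 and BCAT2 farthest to the right, and 10 of the 12 points of the darkness and low-sugar row are filled.

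Of 15 photoreceptor and light signalling genes 2 rose and 0 fell, against 14.3% and 9% of all tested genes. At an unadjusted p under 0.05, 4 were higher and 1 was lower by limma, against 21.2% and 16.4% of all tested genes. The median log2 fold change was 0.15. With quantile normalization 1 fell, the gene of the ubiquitin ligase COP1 (limma, adjusted p = 0.0419). PHYD, a minor red-light receptor, stood at 3.07 and 3.61 FPKM in the WT libraries, against 8.53 and 9.86 FPKM in fer-4 (1.23 ± 0.13, limma, adjusted p = 0.00195). ELIP1, an early light-induced protein gene, went from 5.95 and 3.59 to 11.3 and 8.88 FPKM (limma, adjusted p = 0.0269), a call that ended without WT replicate 2 (0.112), without fer-4 replicate 1 (0.0555) and with no filter on low values (0.0692).

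PIF factors are bHLH proteins that promote growth in darkness. PIF4, a known target of the evening complex early in the night, stood at 0.706 and 0.634 FPKM for WT, with 0.717 and 0.768 FPKM for fer-4 and was below the filter. Of the 7 genes in the list 4 were tested, of which 1 fell and 0 rose, against 9% and 14.3% of all tested genes. At an unadjusted p under 0.05, 2 (PIF1 and PIF5) were lower and 0 higher by limma, against 16.4% and 21.2% of all tested genes. PIF1, which blocks germination in darkness, fell from 9.14 and 9.4 to 4.75 and 5.22 FPKM (limma, adjusted p = 0.00494), a call that ended without WT replicate 2 (0.0538).

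Genes that respond to darkness and low sugar, a state that also changes with the hour, mostly rose in fer-4. Of 12 tested, 10 rose and 0 fell, against 14.3% and 9% of all tested genes. At an unadjusted p under 0.05, 11 were higher and 0 lower by limma, against 21.2% and 16.4% of all tested genes. The median log2 fold change was 1.03. That median ran from 0.98 to 1.13 with 1 library left out. The list was chosen with earlier results of these data known, so its count is a description. ASN1, an asparagine synthetase gene induced in darkness, stood at 4.47 and 4.16 FPKM in the WT libraries, against 56.7 and 58.5 FPKM in fer-4 (3.46 ± 0.089, limma, adjusted p = 5.53e-05). BCAT2, for breakdown of branched-chain amino acids, stood at 1.09 and 0.905 FPKM for WT, with 9.39 and 16.4 FPKM for fer-4 (2.75 ± 0.25, limma, adjusted p = 0.00114); it shares a locus with a gene on the other strand, so its value is uncertain. The 2 that did not pass were the trehalose-phosphate synthase family gene TPS8 (0.32, limma, adjusted p = 0.0531) and the sugar transporter gene STP1 (0.0092, limma, adjusted p = 0.979). STP1 stood at 106 and 143 FPKM for WT and 146 and 106 FPKM for fer-4. ASN1 and STP1 each overlap a gene on the other strand, so their values are uncertain. No test sets this list against the clock genes.

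Each library held an estimated 19.8 to 21.7 M fragments, judged by the smallest listed values, and 4469 of 19183 genes were called in all, 1688 to 4417 with 1 library left out. All 4 shoot and all 8 root markers were listed in every library, the shoot markers summing to 14039 to 15482 FPKM in WT and 10190 to 12887 FPKM in fer-4, the root markers to 140 to 157 and 153 to 154 FPKM. The shoot sum was almost wholly RBCS1A, RBCS1B and RCA, each lower in both fer-4 libraries. The remaining shoot marker, LHCB1.1, went the other way, from 4.97 and 3.15 FPKM in WT to 8.71 and 6.01 FPKM in fer-4. Of 5 seed markers CRA1 and CRU3 were at 0 throughout, and the list summed to 0.101 to 0.102 FPKM in WT and 1.08 to 1.39 FPKM in fer-4. Most of the fer-4 sum was the seed storage albumin gene SESA1, at 0 in both WT libraries and at 1.34 and 1.05 FPKM in fer-4, or about 20 and 15 fragments. The 3 flower markers summed to 0.299 to 0.647 FPKM in WT and 0.621 to 0.713 FPKM in fer-4. The part of shoot, root and seed RNA in the clock gene levels was not tested.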

How the data were processed

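mRNA libraries of 2 WT and 2 fer-4 seedling samples were compared. The deposited values are gene-level FPKM, 1 file per library, per the file headers. StringTie 1.3.3, HISAT2 2.0.5 and CASAVA are listed with TAIR10 as build, per the submitters' processing notes, without roles or settings; the sources used here give neither the annotation release nor a strand setting. Genes absent from a library's file were counted as 0. Besides the overlaps given in the Results, PIF1, CAT2, LNK1 and LNK3 overlap genes on the other strand, so their values are uncertain too. Names, positions and promoter windows come from the RefSeq annotation and sequence of TAIR10.1, which matched 24039 of the 24252 identifiers, and coordinates of the files were not used to read sequence. The promoter window of 1 member is not reported here.

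Log2(FPKM + 1) was tested with limma 3.58.1 (trend, R 4.3.3), without covariates, over genes averaging 1 FPKM or more, with Benjamini-Hochberg adjustment over all 19183 and a threshold of 0.05. The fit was tested on simulated data. An exact permutation of 2 against 2 libraries cannot give p below 0.333. Intervals are unadjusted and cover 95%. Fold changes on this scale understate those of low genes. Depth was estimated from low values of FPKM times length among genes with a single transcript over 1000 bp. The most frequent such value in a library was taken to be 1 fragment. Only 68 to 88 of 353 to 411 low values a library lay near it, so the fragment numbers are approximate.

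The 10 members and the lists were chosen with earlier results of these data known. The rule for named genes took all members, FER, and from each of 6 other lists the 2 largest rises and 2 largest falls past the threshold; 9 list entries whose symbol the annotation does not carry (RVE3, RVE5, RVE6, CDF5, COR28 and 4 ELF4-like genes) were left out.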

Additional observations from a re-analysis of the deposited data

How the results depend on the processing

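The number of core members called went from 1 to 0 with a pseudocount of 0.1, with no filter on low values, with quantile normalization, with median-ratio scaling and with the replicate block, and was 0 to 1 with 1 library left out (limma; 1 to 3 members had an unadjusted p under 0.05 over the 9 alternatives). The other 6 members tested were called under none of the 9. GI changed sign with quantile normalization (-0.081), when WT replicate 2 (-0.055) or fer-4 replicate 2 (-0.037) was left out, and ranged from -0.055 to 0.16 with 1 library left out. The members called in the 6 other lists numbered 22, and 11 to 20 with 1 library left out; all genes called numbered 4469, and 1688 to 4417. The dawn minus evening difference ran from -0.38 to 0.073 with 1 library left out. The replicate block gave 3772 calls and ended those of ELF3 (limma, adjusted p = 0.0938), LWD1 (0.0575) and CKB4, and of no other named gene. The deviations of same-numbered libraries correlated at -0.222 over genes, and nothing in the labels says that a number marks a pair. Crossing the numbers, an alternative chosen after seeing the data, gave 5681 calls, with 2 core members and 26 genes of the other lists. Depth limits CCA1 and PRR9, at about 2 to 12 fragments a library.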
